A study of Arabidopsis thaliana with 8 samples.

Results

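RNA from whole wild type Arabidopsis thaliana seedlings of the accession Col-0, collected at 7 days of age, was sequenced in 2 libraries described by the submitters as biological replicates. The account covers every locus of at least 300 bp, which were 31715 of the 33557 genes in each file, and ranks them by the mean of the 2 deposited FPKM values. FPKM is the number of sequenced fragments scaled to the length of the transcript and to the number of fragments in the library, so values can be compared between genes. Seeds were kept for 3 days at 4 °C in the dark, and seedlings then grew on half-strength Murashige and Skoog plates at 22 °C under 16 h of light and 8 h of dark. The series holds 6 more libraries raised the same way, 2 each of the dek3-2 mutant, the dek4-2 mutant and the double mutant dek3-2 dek4-2, labelled dd-2. The labels do not say how many seedlings entered a library, so the spread between the Col-0 libraries may hold technical as well as biological variation.

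A seedling of this age has open green cotyledons, a short stem and a growing root. Its cotyledon and leaf cells build chloroplasts, in which the photosystems and their antennas capture light, a chain of electron carriers passes the energy on, and Rubisco fixes carbon dioxide in the Calvin cycle. Most of these proteins are encoded in the nucleus, while a small set, including the large subunit of Rubisco and the cores of the photosystems, is encoded in the chloroplast genome. Growing tissue also needs ribosomes, and the genes for their proteins are among the most highly transcribed of dividing and expanding cells.

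The summed FPKM of the loci analysed was 868285 in replicate 1 and 842509 in replicate 2. The lowest values moved in whole steps of 1 fragment, and the size of the step gave about 31540000 fragments for replicate 1 and 34580000 for replicate 2. Of 264 low values in replicate 1 and 368 in replicate 2, 97.3% and 96.5% lay within 0.15 of a whole number of fragments. For a step fixed in advance 30% would by chance. The step and a length correction were fitted to these same values, so the shares are favoured by the fit and are no independent check. DEK3, the gene mutated in dek3-2, stood at 48.3 and 70.2 FPKM in Col-0, against 16.7 and 13.3 in dek3-2 and 19.9 and 17.5 in dd-2. DEK4, mutated in dek4-2, stood at 23.7 and 35.2 FPKM in Col-0, against 10.3 and 18.4 in dek4-2 and 16.3 and 15.4 in dd-2. In both cases the Col-0 libraries lay above the mutants of that gene, as the labels have it.

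A locus was counted as detected where it reached 1 FPKM in both Col-0 libraries. This held for 18411 loci, or 58.1% of those analysed, while 731 reached it in 1 library only and 1496 were listed at 0 in both. Detection was uneven among kinds of gene: 17936 of 26237 protein-coding loci (68.4%), 225 of 515 noncoding RNA loci (43.7%) and 154 of 4660 pseudogene loci (3.30%) were detected. The median of the mean FPKM was 3.09 over all loci and 13.9 over detected loci. A mean of at least 10 FPKM was reached by 11020 loci, of at least 100 FPKM by 1536 and of at least 1000 FPKM by 85. Among the 69 loci up to 20 bp shorter than the length limit, 10 were detected and the highest was AT1G15405 with 37.9 and 61.1 FPKM. Among the 125 loci at or less than 20 bp above it, 14 were detected and the highest was the chloroplast ribosomal protein gene RPS14 with 124 and 151 FPKM.

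Carbon fixation led the ranking. RBCS-1A (AT1G67090, chr1:25048158-25049424), which encodes a small subunit of Rubisco, had 15159 FPKM in replicate 1 and 13211 FPKM in replicate 2, a mean of 14185 ± 1378 (SD, n = 2). That single gene held 1.75% of the summed FPKM of replicate 1 and 1.57% of that of replicate 2. The other 3 genes of the family lie next to each other on chromosome 5. RBCS-3B (AT5G38410, chr5:15377173-15378416) had 6538 and 6049 FPKM, RBCS-2B (AT5G38420, chr5:15380945-15382035) 4022 and 3691 FPKM, and RBCS-1B (AT5G38430) 1713 and 1409 FPKM. RBCS-1A therefore carried 54.8% of the family's summed mean, and the order of the 4 genes was the same in both libraries. Together they held 3.16% of all FPKM in replicate 1 and 2.89% in replicate 2. Of the 50-base stretches of their messages, 1.48% in RBCS-1A but 18.3% in RBCS-3B, 21.4% in RBCS-2B and 14% in RBCS-1B also occur in another gene's message, so the split among the chromosome 5 copies is less certain than the sum.

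The sequences upstream of these 4 genes are shown because they belong to the highest nuclear gene and its nearest relatives. They are the 250 bases before the 5′ end that the files give, read on the gene's own strand from the RefSeq assembly TAIR10.1. All 4 genes lie on the minus strand, at chr1:25049425-25049674 for RBCS-1A, chr5:15378417-15378666 for RBCS-3B, chr5:15382036-15382285 for RBCS-2B and chr5:15385248-15385497 for RBCS-1B. Capitals mark the I box GATAAG and the G box CACGTG, both known as elements of light-responsive plant promoters, on either strand (CTTATC is the I box read on the other strand and the G box reads the same on both). Capitals also mark a TATAAA, the core of the TATA box, in the last 50 bases on the gene's strand.
RBCS-1A: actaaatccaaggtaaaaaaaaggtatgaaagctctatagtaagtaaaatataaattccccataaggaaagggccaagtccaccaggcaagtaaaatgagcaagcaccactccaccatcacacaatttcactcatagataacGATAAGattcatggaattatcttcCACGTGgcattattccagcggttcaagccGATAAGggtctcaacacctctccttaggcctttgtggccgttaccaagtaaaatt
RBCS-3B: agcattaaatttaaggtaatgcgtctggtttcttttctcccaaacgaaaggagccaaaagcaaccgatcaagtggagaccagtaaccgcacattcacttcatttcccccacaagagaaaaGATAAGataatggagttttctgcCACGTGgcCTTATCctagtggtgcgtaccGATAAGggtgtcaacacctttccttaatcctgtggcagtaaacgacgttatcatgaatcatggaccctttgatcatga
RBCS-2B: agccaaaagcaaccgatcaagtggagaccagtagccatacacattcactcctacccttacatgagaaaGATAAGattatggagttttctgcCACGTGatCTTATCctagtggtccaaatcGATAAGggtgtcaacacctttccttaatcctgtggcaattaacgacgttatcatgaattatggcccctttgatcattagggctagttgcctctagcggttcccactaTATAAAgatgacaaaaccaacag
RBCS-1B: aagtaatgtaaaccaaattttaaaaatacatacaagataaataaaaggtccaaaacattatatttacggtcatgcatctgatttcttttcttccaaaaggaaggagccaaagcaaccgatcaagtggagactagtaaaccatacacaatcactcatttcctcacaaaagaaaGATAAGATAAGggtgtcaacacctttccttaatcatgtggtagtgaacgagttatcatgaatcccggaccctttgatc
An I box was found in all 4 sequences and a G box in 3 of them, RBCS-1B being the exception. In RBCS-1A the I boxes began at positions -108 and -55 from the 5′ end, with the G box between them at -84. RBCS-3B and RBCS-2B each held 3 I boxes, with the G box between the first and the middle one, and the I boxes of RBCS-1B, at -78 and -73, overlapped. Only RBCS-2B held a TATAAA in the last 50 bases, at -23. The I boxes began at -130, -99 and -78 in RBCS-3B and at -182, -151 and -130 in RBCS-2B. The 5′ end that the files give for RBCS-3B thus lies farther upstream in a similar sequence. Whether a TATAAA follows beyond the RBCS-3B window was not examined, so these positions do not show that the promoters differ. For comparison, among 22554 nuclear protein-coding loci that stand alone in the files, 12.8% held an I box and 7.68% a G box in the 250 bases upstream, and 13% held a TATAAA in the last 50 bases. A match is a description of the letters in this window only.

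**Figure D1:**
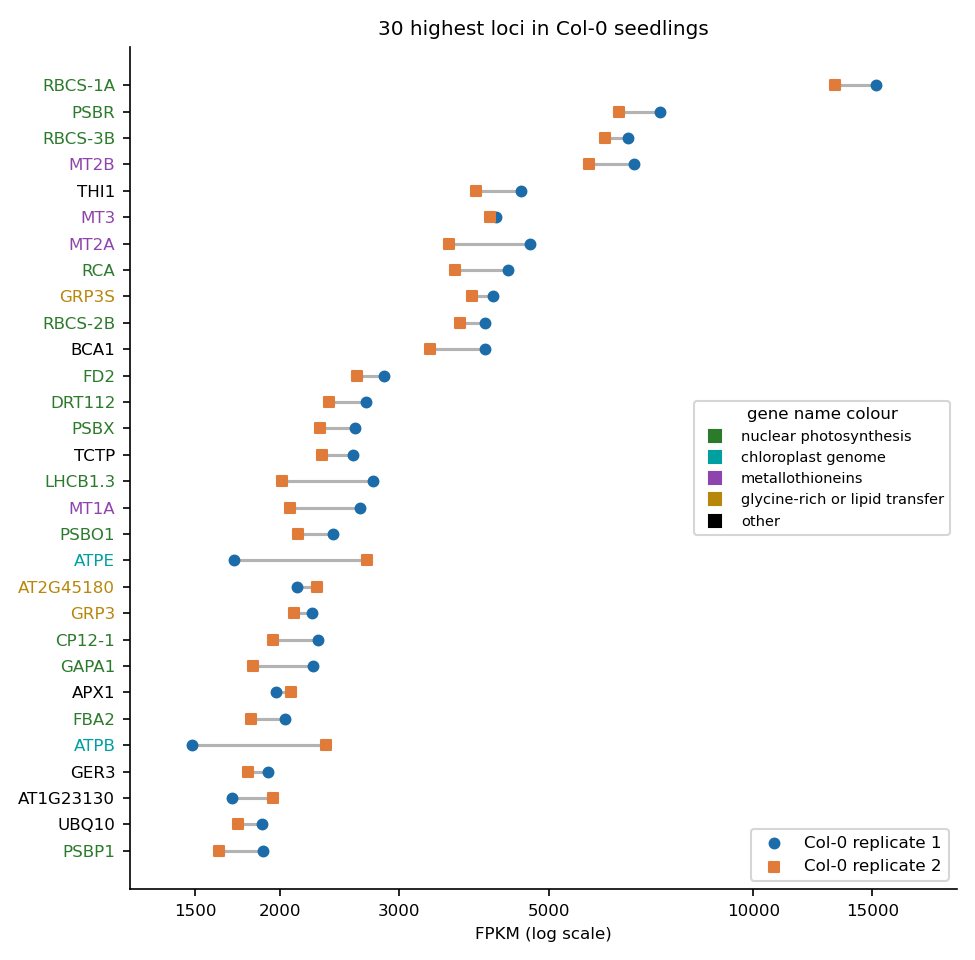
FPKM (log scale) of the 30 highest loci in Col-0 replicate 1 (circles) and replicate 2 (squares), from the highest mean at the top, with gene names coloured by function. RBCS-1A stands apart at 15159 and 13211 FPKM, 14 of the names are those of nuclear photosynthesis genes, and 25 of the 30 loci are lower in replicate 2.

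Photosynthesis genes filled much of the rest of the top 30. Genes of nuclear photosynthesis, defined here as Rubisco small subunits and activase, photosystem subunits, light-harvesting antenna proteins, photosynthetic electron carriers and enzymes of the Calvin cycle and photorespiration, took 14 of the 30 highest places. Rubisco activase (RCA), the chaperone that frees Rubisco of bound sugars, had 4337 and 3631 FPKM. PSBR, a subunit of photosystem II, was the second gene overall with 7291 and 6342 FPKM, though the files give it a locus that spans a neighbour as well. Values on such merged loci, which 4250 of the 31715 genes have, are less certain. Further subunits of photosystem II in the top 30 were PSBX with 2583 and 2292 FPKM and PSBO1 and PSBP1, proteins of the oxygen-evolving complex, with 2395 and 2126 FPKM and 1884 and 1626 FPKM. Electrons are carried by ferredoxin and plastocyanin. The ferredoxin gene FD2 had 2850.1 and 2596 FPKM and the plastocyanin gene DRT112 had 2682 and 2359.6 FPKM. The antenna gene LHCB1.3 had 2739 and 2010.2 FPKM, with 17.0% of its stretches shared with other genes. CP12-1, a small protein that regulates Calvin cycle enzymes, had 2274 and 1953 FPKM, next to the enzyme genes GAPA1 with 2235 and 1825 FPKM and FBA2 with 2034 and 1812 FPKM. All of these genes, from RCA to FBA2, were lower in replicate 2, by 1.1-fold (FD2) to 1.36-fold (LHCB1.3). The direction was not particular to them, since 25 of the 30 highest and 81 of the 100 highest loci were lower in replicate 2.

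The other places of the top 30 were held by genes of several kinds. Metallothioneins, short cysteine-rich proteins that bind metals, took 4 places. MT2B had 6666 and 5724 FPKM, MT3 4166 and 4088 FPKM, MT2A 4677 and 3556 FPKM and MT1A 2624 and 2070.4 FPKM. The loci of MT2B, MT3 and MT1A are merged with neighbours in the files, and every 50-base stretch of the MT1A message also occurs in another annotated gene's message, so the MT1A value is uncertain. THI1, which makes the thiazole part of vitamin B1 in the chloroplast, had 4544 and 3892 FPKM, and BCA1, a chloroplast carbonic anhydrase, had 4015 and 3327 FPKM. A pair of glycine-rich proteins stood high, GRP3S with 4123 and 3844 FPKM and GRP3 with 2229 and 2096 FPKM. AT2G45180, annotated as a lipid transfer family protein, had 2121 and 2270.1 FPKM. APX1, the ascorbate peroxidase that removes hydrogen peroxide in the cytosol, had 1974 and 2074 FPKM, and UBQ10, a polyubiquitin, had 1883 and 1731 FPKM. TCTP (translationally controlled tumor protein) had 2562 and 2304 FPKM, GER3, a germin, 1917 and 1796 FPKM, and AT1G23130, annotated as a polyketide cyclase and lipid transport protein, 1696 and 1954 FPKM.

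The order within the top 30 was resolved at few points. The values of a gene and of the next lower one overlapped between the 2 libraries for 27 of 30 neighbouring pairs, and they did not overlap only between RBCS-1A and PSBR, MT2B and THI1, and BCA1 and FD2. In 10 of the 30 pairs the order was the same in both libraries. The coefficient of variation over the 2 libraries ran from 1.34% to 31.8% with a median of 9.38%. The largest belonged to the chloroplast locus that holds ATPE and ATPB, which are the organelle genes among the 30. Membership was steadier than order: the 10 highest genes were the same in both libraries, and 26 of 30, 96 of 100 and 940 of 1000 were shared. For 7 of the top 30 both Col-0 values lay within the range of the 6 mutant libraries, whereas this held for 48.6% of all loci with a mean of at least 20 FPKM.

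Expression was concentrated in few genes. The 10 highest loci held 7.09% of the summed FPKM in replicate 1 and 6.41% in replicate 2, a mean of 6.75 ± 0.476% (SD, n = 2). The 100 highest held 22.8% and 21.5%, and the 1000 highest held 54.3% and 52.5%. Counted from the top, 133 genes made up 25% of the mean total, 819 genes 50%, 3276 genes 75% and 7626 genes 90%. These are shares of FPKM, which stand for messages and not for sequenced fragments.

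By function, the 121 genes of nuclear photosynthesis held 14.2% of the summed FPKM in replicate 1 and 13% in replicate 2, a mean of 13.6 ± 0.853% (SD, n = 2). They took 48 of the 100 highest places, and 117 of them were detected. The 6 mutant libraries ran from 11.1% to 13.5%, so replicate 1 lay above and replicate 2 within that range. Comparisons with the mutants are given as ranges without a test. The photosystem subunits, 39 loci that were all detected, held 4.08% and 3.80%, with a median of 554 FPKM over the loci. The 4 Rubisco small subunit genes and activase, only 5 loci, held 3.66% and 3.32%. Enzymes of the Calvin cycle and photorespiration, 27 loci, held 3.10% and 2.85%, electron carriers 1.85% and 1.72%, and light-harvesting antenna proteins 1.53% and 1.32%. Beyond the top 30, photosystem I subunits such as PSAG (1715 and 1586 FPKM) and PSAD1 (1512 and 1477 FPKM) and the photorespiratory enzyme AGT1 (1831 and 1583 FPKM) stood among the 50 highest loci. These 3 were chosen after their values were seen.

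**Figure D2:**
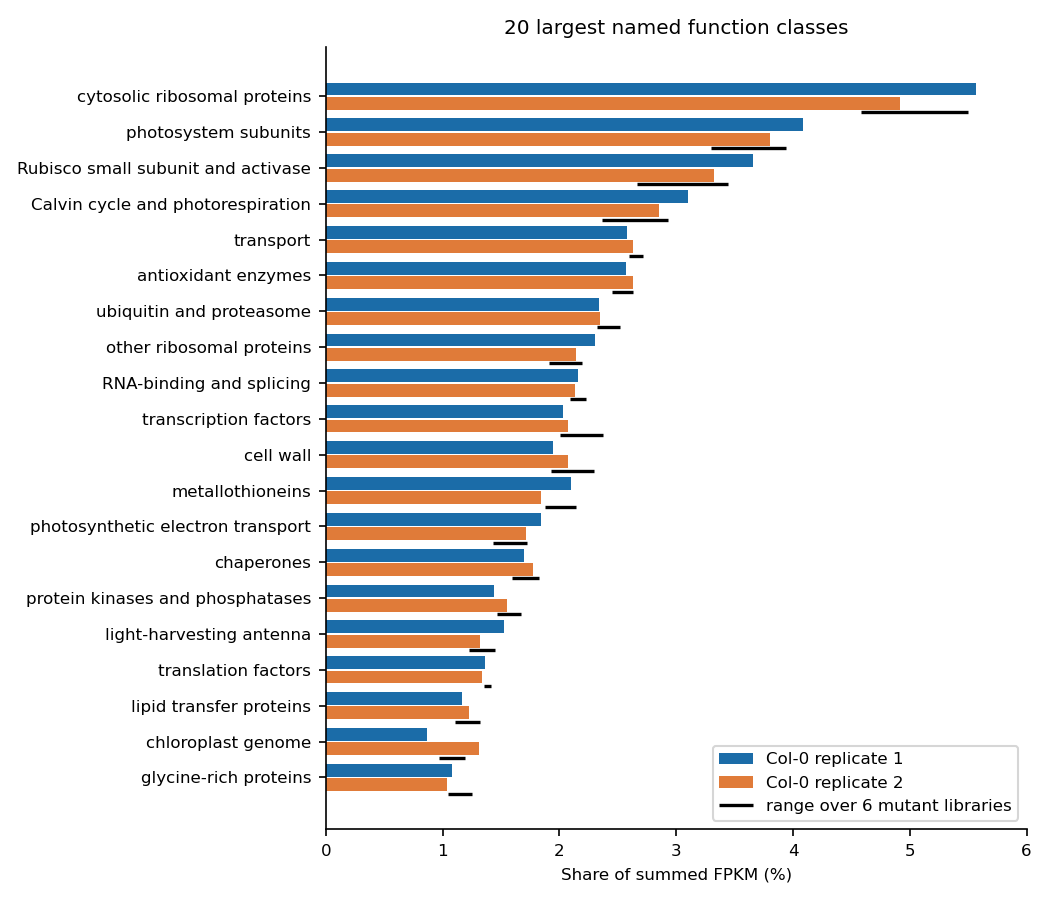
Share of the summed FPKM (%) held by the 20 largest named function classes in Col-0 replicate 1 (upper bar) and replicate 2 (lower bar), with the range over the 6 mutant libraries as a black line below them. Cytosolic ribosomal proteins lead with 5.56% and 4.91%, and the chloroplast genome shows the largest relative gap between the bars, 0.867% and 1.31%. Part of that gap is a single locus, TRNA.2, with 0 and 0.114%.

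Protein synthesis was the other large block, and it was spread over many genes of moderate level. Ribosomal proteins and translation factors, 501 loci of which 455 were detected, held 9.23% and 8.39% of the summed FPKM in Col-0, against 7.85% to 9.03% in the mutant libraries. Only 3 of them stood among the 100 highest loci. Proteins of the cytosolic ribosome alone, 236 loci with 216 detected, held 5.56% and 4.91%, the largest share of any named class, and filled 138 of the 1000 highest places. Their median was 198 FPKM over the detected loci. The 3 highest were RPS8A with 684 and 556 FPKM, RPL14B with 651 and 535 FPKM and the short RPL41E gene AT1G56045 with 629.6 and 514 FPKM, so no member held more than 1.38% of the class. The class thus differed in shape from the Rubisco class, of which RBCS-1A held 47.5%. Ribosomal proteins of organelles and others not placed in the cytosol held 2.30% and 2.14%, led by the chloroplast protein SSR16 with 1249 and 1023 FPKM. Among translation factors, elongation factor 1-alpha is encoded by 4 genes, and AT5G60390 (A3) with 957 and 839 FPKM carried 71.3% of their sum. From 44.9% to 66.2% of the stretches of the other 3 copies are shared, so their values are uncertain.

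Of the 202 detected cytosolic ribosomal protein genes that stand alone in the files and have a promoter sequence, 170 (84.2%) held a site II element, TGGGCC or TGGGCT on either strand, in the 250 bases upstream, against 20.2% of all 22554 promoters. A telo box, AAACCCTA on either strand, was present in 94 (46.5%), against 6.5% of all. Both kinds of element were found together in 82 (40.6%), against 2.04% of all. Site II elements and telo boxes are known from promoters of plant ribosomal protein genes. The median level of the 82 genes with both was 241 FPKM, and that of the 120 others was 172 FPKM. The 150 bases upstream of the 4 highest genes with both elements are printed to show their arrangement, with site II elements and telo boxes in capitals. The regions are chr5:6853067-6853216 for RPS8A and chr4:13595253-13595402 for RPL14B (both minus strand), and chr1:20962474-20962623 for RPL41E and chr3:1167126-1167275 for RPL23C (both plus strand), from RefSeq TAIR10.1.
RPS8A: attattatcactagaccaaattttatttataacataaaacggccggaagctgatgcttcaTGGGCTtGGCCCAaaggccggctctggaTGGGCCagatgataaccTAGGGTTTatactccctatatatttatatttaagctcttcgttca
RPL14B: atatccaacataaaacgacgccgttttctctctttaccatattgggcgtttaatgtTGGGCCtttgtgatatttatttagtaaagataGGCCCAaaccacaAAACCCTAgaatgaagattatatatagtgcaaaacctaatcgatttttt
RPL41E: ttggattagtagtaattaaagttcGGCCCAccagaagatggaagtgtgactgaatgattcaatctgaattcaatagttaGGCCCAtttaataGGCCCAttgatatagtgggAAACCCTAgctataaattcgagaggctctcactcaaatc
RPL23C: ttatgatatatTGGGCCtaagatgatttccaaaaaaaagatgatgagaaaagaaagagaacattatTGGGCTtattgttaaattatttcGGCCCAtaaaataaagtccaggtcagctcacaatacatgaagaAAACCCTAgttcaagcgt
In each of the 4 the telo box lay nearest to the gene, beginning at -45 in RPS8A, -49 in RPL14B, -39 in RPL41E and -18 in RPL23C. Every site II element in these windows lay farther upstream, from -58 to -139. RPS8A and RPL23C held both forms of site II, and RPL14B and RPL41E held only TGGGCC. The elements do not overlap each other in these 4 windows. Proteins of mitochondrial respiration, a class that held 0.886% and 0.84% of the FPKM, also often had a site II element (66.7% of 69 promoters) but rarely a telo box (2.90%).

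The remaining named classes each held less than 3% of the total. Transport proteins held 2.58% and 2.63% over 914 loci and were led by AAC1, a mitochondrial carrier that exchanges ADP for ATP, with 720.1 and 644 FPKM. Antioxidant enzymes held 2.57% and 2.63%. Besides APX1, this class was led by the catalase CAT3, which breaks down hydrogen peroxide in peroxisomes, with 1638 and 1615 FPKM, and by the thioredoxin TRX3 with 1005 and 1121 FPKM. The metallothioneins, 8 loci of which 6 were detected, held 2.1% and 1.84%. Ubiquitin and proteasome genes held 2.34% in each library. Chaperones held 1.69% and 1.77% and were led by the heat shock cognate protein gene MED37E with 1264 and 1268 FPKM. Aquaporins, which pass water through membranes, held 0.535% and 0.533%, led by TIP1-2 of the vacuole membrane with 1202 and 1083 FPKM and PIP1-2 of the plasma membrane with 836 and 749.8 FPKM. Histones held 0.542% and 0.491%, and cytoskeleton genes 0.585% and 0.592%, with ACT2 at 586 and 551 FPKM.

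Proteins of the cell wall and surface, with lipid transfer proteins, glycine-rich proteins and class III peroxidases, held 4.54% and 4.67% over 887 loci, against 4.63% to 5.27% in the mutants. CWLP, annotated as a cell wall and plasma membrane linker protein, had 1675 and 1717 FPKM. Among lipid transfer proteins, which carry lipids to the surface and act in defence, AZI1 had 1631 and 1529 FPKM and LTP5 had 1121 and 1216 FPKM. Class III peroxidases, secreted enzymes that act on wall polymers, were dominated by PER42 with 1438 and 1469 FPKM, which held 49.5% of the class. Defence compounds of the mustard family were represented by TGG1, a myrosinase that splits glucosinolates, with 1085 and 1396 FPKM, by BGLU23, a beta-glucosidase of ER bodies, with 913 and 870.4 FPKM, and by PBP1, which binds it, with 587 and 599 FPKM. For BGLU23 and PBP1 both Col-0 values lay below all 6 mutant libraries, which ran from 941 to 1439 FPKM for BGLU23 and from 612 to 861 FPKM for PBP1. Both Col-0 values lay within the mutant range for only 48.6% of all loci with a mean of at least 20 FPKM. How many lay below all mutants is not given here, so the order is not shown to be particular to BGLU23 and PBP1. The locus of BGLU23 is a merged one.

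Regulators made up little of the total. Transcription factors, 1366 loci with 852 detected, held 2.03% and 2.08%, and only 1 of them was among the 100 highest loci. This was RAP2-3, an ethylene response factor, with 1601 and 1165 FPKM. Then followed the auxin response repressor IAA16 with 185 and 186 FPKM, AT1G19000 (annotated as homeodomain-like) with 175 and 182 FPKM, and the CONSTANS-like gene ATCOL4 with 184 and 169.7 FPKM. HAT5, RAP2-2, IAA7, WLIM2B, ATHB-6 and COL3 completed the 10 highest with means of 175 to 150.1 FPKM. The 9 after RAP2-3 lay between 150.1 and 185 FPKM, and their order was not resolved by the spread between the libraries at most steps. Protein kinases and phosphatases, 999 loci with 721 detected, held 1.44% and 1.55% and had no member among the 1000 highest loci. Their highest gene was SRK2D, a kinase of the SnRK2 family, with 138 and 129 FPKM.

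Genes annotated with no known function, 2728 loci with 1356 detected, held 4.44% in each library. The highest was AT5G42530 with 1032 and 864 FPKM, the only such gene among the 100 highest. Next came AT1G09310, a protein of the DUF538 family, with 490.2 and 784 FPKM. It differed by 1.6-fold between the libraries and ran from 540.3 to 1106 FPKM in the mutants. AT5G44580 had 605 and 533 FPKM and AT5G38980 had 536 and 509 FPKM. The other 6 of the 10 highest were AT5G24165, AT2G23090, AT5G02160, AT5G20790, AT5G21020 and AT5G20700, with means of 509 to 344 FPKM. Much of the FPKM lay in genes with an annotation outside the named classes, 27.2% and 28.0% in other annotated genes and 18.4% and 19.0% in other enzymes, so the shares of the named classes depend on the wording of the annotation. Pseudogenes held 0.232% and 0.218%. Noncoding RNA held 0.417% and 0.415%, led by the cytosolic 18S ribosomal RNA gene AT3G41768 with 327 and 359 FPKM. How ribosomal RNA was removed is not given in the sources used here.

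By genome, nuclear loci held 99.1% of the summed FPKM in replicate 1 and 98.7% in replicate 2. The 72 chloroplast loci of at least 300 bp, of which 49 were detected, held 0.867% and 1.31%, a mean of 1.09 ± 0.314% (SD, n = 2), against 0.965% to 1.19% in the mutants. The 2 Col-0 libraries thus lay on either side of all 6 mutant libraries. For replicate 2 nearly all of the distance above the mutants came from a single locus. This was the transfer RNA locus TRNA.2, which held 0.114% of the summed FPKM in replicate 2 and 0 in replicate 1. The highest chloroplast locus was that of the ATP synthase subunits ATPE, with 1710.0 and 2692 FPKM, and ATPB, with 1481 and 2338 FPKM, whose genes the files merge. RPL16, a ribosomal protein, had 659 and 892 FPKM. PSBA, the D1 protein at the core of photosystem II, had only 112 and 152 FPKM, and RBCL, the large subunit of Rubisco, had 59.2 and 56.8 FPKM. RBCS-1A, for its partner in the same enzyme, thus stood far above RBCL in FPKM in these libraries. Whether poly(A) RNA was selected is not given in the sources used here. Both copies of RRN16S, RRN23S, YCF2, NDHB, RPS7, rps12 and rpl2 had means of only 0 to 0.225 FPKM. These low values may be failed estimates, since how reads matching both copies were counted is not given either. The chloroplast share and the count of detected chloroplast loci are uncertain to that extent.

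Chloroplast loci did not move together between the Col-0 libraries. Of the 50 with a mean of at least 5 FPKM, 24 were higher and 26 lower in replicate 2. The 17 highest, from ATPE to RPOA, were all higher in replicate 2. Genes for the cores of the photosystems went both ways. PSBD (155 and 184 FPKM), PSBC (127 and 151 FPKM) and PSBA (112 and 152 FPKM) were among those higher. PSAB (68.9 and 58.8 FPKM), PSAA (68.8 and 56.3 FPKM) and PSBB (68.4 and 58.5 FPKM) were lower. TRNA.2, a transfer RNA locus, had 0 FPKM in replicate 1 and 959 FPKM in replicate 2, and it was listed at 0 in all 6 mutant libraries. That single value was 0.114% of the summed FPKM of replicate 2. None of the 125 loci of the mitochondrial genome reached 1 FPKM in both libraries, 121 were listed at 0 in both libraries, and the highest, the ribosomal RNA gene RRN18, had 0.684 and 0.664 FPKM. A stretch of chromosome 2 that carries a copy of the mitochondrial genome was as low, with a highest mean of 0.876 FPKM over its 110 loci, and genes that every cell uses, such as COX3, MT-CYB and ATP6-1 there, were listed at 0. These zeros may be failed estimates and do not show that the genes were silent, since how reads matching both copies were counted is not given in the sources used here. Among nuclear genes, mitochondrial respiration was led by AT3G08610, a subunit of complex I, with 326 and 285 FPKM and COX6A, a subunit of cytochrome c oxidase, with 308 and 285 FPKM.

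In 9 of 12 families that were tabulated a single member held over 50% of the summed mean. BCA1 carried 68.7% of the 6 beta carbonic anhydrases, LHCB1.3 68.6% of the 5 LHCB1 antenna loci, CAT3 63.6% of the 3 catalases, TIP1-2 56.0% of the 10 vacuole membrane aquaporins, UBQ10 52.7% of the polyubiquitins and ACT2 51.3% of the 10 actins. The other 3 were more even, with MT2B at 36.7% of the metallothioneins, PIP1-2 at 33.9% of 13 plasma membrane aquaporins and XTH7 at 26.8% of 33 xyloglucan endotransglucosylases. The lowest actins were near 0, with ACT4, ACT5, ACT9 and ACT12 at means of 0.220 to 0.361 FPKM. The other antenna genes of photosystem II were uneven as well. The LHCB2 genes, which encode a close relative of LHCB1, had means of 24.5 (LHCB2.1), 14 (LHCB2.2) and 4.54 FPKM (LHCB2.4), against 2375 FPKM for LHCB1.3. From 22.7% to 28.2% of the stretches of LHCB2.1 and LHCB2.2 occur in other genes, so their levels are uncertain. The LHCB2 and family members named here were chosen after their values were seen. Across all nuclear protein-coding loci with a single gene, 69.3% of the 19104 that share no stretch with another gene were detected, against 32 of 303 (10.6%) of those that share over 50%. How reads matching several genes were counted is not given in the sources used here, and its part in this gap was not tested.

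Transcript length and promoter letters varied with level. The median transcript was 1275 bp for the 90 single-gene nuclear protein-coding loci among the 100 highest, 1243 bp for the next loci down to rank 1000, 1639 bp for those from there to rank 5000 and 1854 bp for lower detected loci, but 1148.5 bp for loci not detected. An I box was found upstream of 42.2% of the 90, 19.1% of the next down to rank 1000, 15.9% of those to rank 5000, 11.8% of lower detected loci and 11.9% of loci not detected. For the G box the shares in these 5 groups were 23.3%, 12.7%, 10.7%, 8.39% and 4.70%. A TATAAA in the last 50 bases was found in 22.2%, 22.1%, 15.0%, 13% and 11.1%. Site II elements peaked lower down, at 40% of the group down to rank 1000, where the ribosomal proteins lie, against 24.4% of the top group. These shares describe letters over genes and carry no test.

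**Figure D3:**
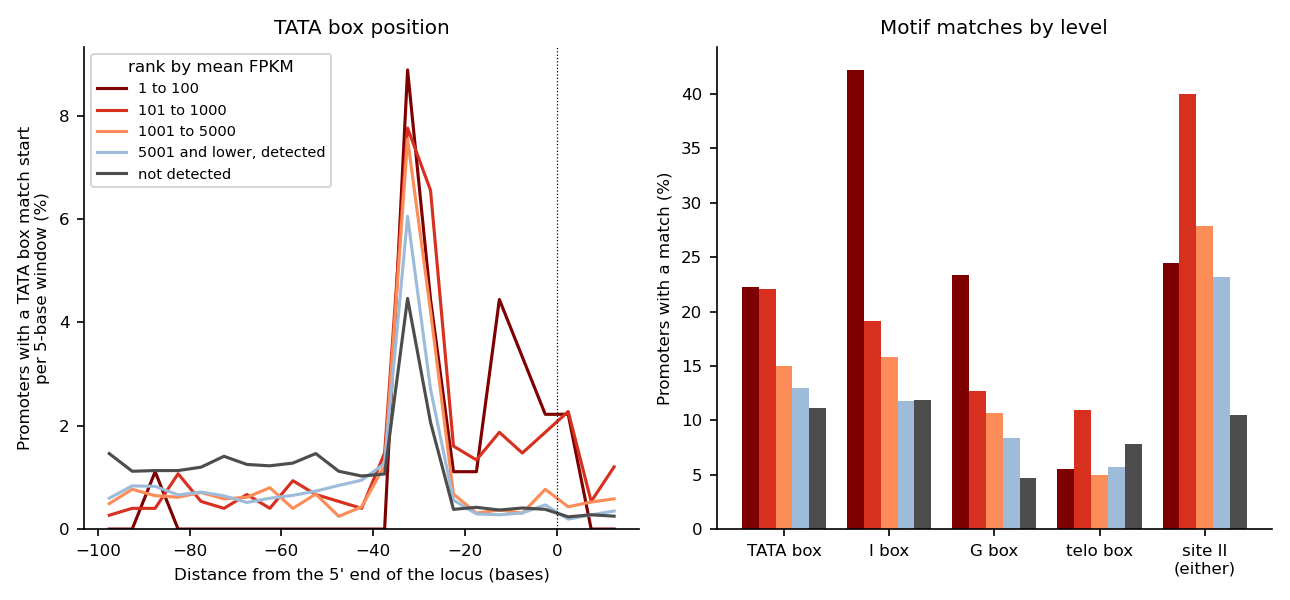
Left, share of promoters (%) in which a TATAAA begins in each 5-base window, by distance from the 5′ end of the locus in bases, for 5 classes of expression rank in Col-0. Right, share of promoters (%) with each motif in the same classes. Matches to TATAAA gather in the window that begins at -35 in every class, and the I box is most frequent in the top class at 42.2%.

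Among the classes, the class III peroxidases held a TATAAA most often, and the photosystem genes and electron carriers least often. None of the 32 photosystem promoters and none of the 15 promoters of electron carriers held TATAAA in the last 50 bases, while 25 of 52 peroxidase promoters (48.1%) did, against 13.9% of all detected genes. The antenna genes differed from the photosystem genes, with a TATAAA in 30% of 20 promoters, and over the photosystem, antenna and electron carrier genes together 6 of 67 (8.96%) held it. Of the 32 photosystem promoters, 15 (46.9%) held an I box and 12 (37.5%) a G box. The 15 photosystem genes with an I box had a median of 1177 FPKM and the 17 without had 85.7 FPKM. Over all detected genes the medians were 17.9 FPKM with an I box and 13.6 FPKM without. For cytosolic ribosomal proteins the order was reversed, with 154 FPKM with an I box and 204 FPKM without. The last 60 bases before the 5′ end are printed for the 4 highest single-gene photosystem loci and for the 4 highest peroxidase loci that hold a TATAAA, which is in capitals, to show the letters at this position. For the photosystem genes the regions are chr2:2588359-2588418 for PSBX and chr1:20803450-20803509 for PSAG (both minus strand), and chr5:26568593-26568652 for PSBO1 and chr1:2047765-2047824 for PSBP1 (both plus strand), from RefSeq TAIR10.1.
PSBX: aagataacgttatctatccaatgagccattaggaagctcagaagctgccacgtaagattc
PSBO1: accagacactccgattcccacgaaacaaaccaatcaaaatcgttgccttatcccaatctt
PSBP1: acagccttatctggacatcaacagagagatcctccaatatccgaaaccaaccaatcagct
PSAG: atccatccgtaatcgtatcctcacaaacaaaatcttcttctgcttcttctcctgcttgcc
For the peroxidases, chosen for the match, the regions are chr5:25661003-25661062 for PER71, chr3:13529998-13530057 for PER32 and chr5:23601326-23601385 for PER67 (minus strand) and chr3:18200604-18200663 for PER33 (plus strand).
PER71: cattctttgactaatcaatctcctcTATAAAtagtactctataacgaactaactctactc
PER32: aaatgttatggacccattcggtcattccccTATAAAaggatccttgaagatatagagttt
PER33: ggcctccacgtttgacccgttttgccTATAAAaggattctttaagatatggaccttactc
PER67: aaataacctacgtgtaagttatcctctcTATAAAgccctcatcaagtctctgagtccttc
The TATAAA began at -35, -30, -34 and -32 in these 4 peroxidase promoters. PER71 had 289 and 231 FPKM, PER32 70.7 and 59.4 FPKM, PER33 62.4 and 62.2 FPKM and PER67 53.6 and 47.6 FPKM. PER42, the highest of the class, held no TATAAA in this window. Absence of the letters from the window says nothing about how the genes start transcription.

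The label of whole seedling was set against organ and cell type markers. Most mesophyll markers were very high, with a sum of 37463 FPKM in replicate 1 and 32636 FPKM in replicate 2 over 9 genes. Most of that sum came from RBCS-1A, RBCS-3B, RCA and RBCS-2B, which also lead the ranking above. LHCB2.1 of the same list had only 23.8 and 25.2 FPKM. All 4 epidermis markers were detected with a sum of 377 and 379 FPKM, and FDH, an enzyme of cuticle lipid synthesis, had 148 and 178 FPKM. The stomatal lineage was represented by all 9 markers, including SPCH, which starts the lineage, with 10.6 and 10.7 FPKM, and FAMA, which acts at its last step, with 27.4 and 37.0 FPKM. Phloem markers summed to 351 and 328 FPKM, with the sucrose transporter SUC2 at 132 and 122 FPKM, and xylem markers to 54.6 and 52.9 FPKM. Markers of rarer cells were low: the meristem gene STM had 4.63 and 5.42 FPKM and the mitotic syntaxin KN had 13.1 and 12.1 FPKM. None of the 5 markers of root meristem and root cap reached 1 FPKM in both libraries, with WOX5 of the quiescent centre at 0.811 and 0.514 FPKM. Seed storage and oil body markers summed to 4.38 and 5.69 FPKM over 9 genes, none of them detected, while the mutant libraries ran from 2.84 to 1781 FPKM, the highest being dek3-2 replicate 1. Flower markers were near 0 apart from SEP3 with 6.4 and 8.79 FPKM and PI with 2.14 and 1.66 FPKM.

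**Figure D4:**
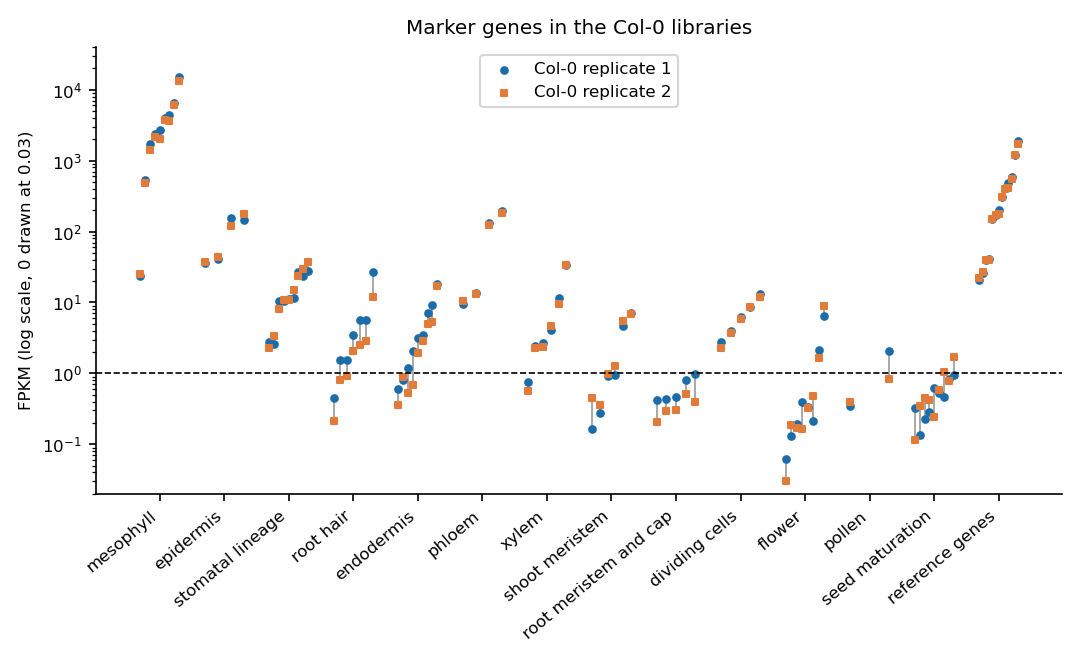
FPKM (log scale) of marker genes by list in Col-0 replicate 1 (circles) and replicate 2 (squares), with a grey line joining the values of a gene and a dashed line at 1 FPKM. Mesophyll markers reach 15159 FPKM, root meristem markers stay under 1 FPKM, and every root hair marker lies lower in replicate 2.

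Most root hair and endodermis markers were lower in replicate 2. The 7 root hair markers were all lower in replicate 2, with a sum of 45.1 FPKM in replicate 1 and 21.2 FPKM in replicate 2, and the mutants ran from 16.7 to 51.8 FPKM. Only 4 of these 7 were detected. PRP3, a wall protein of root hairs, had 26.7 and 11.8 FPKM and made up most of both sums, and the expansin gene EXPA7 had 5.68 and 2.88 FPKM. Of 9 endodermis markers 8 were lower in replicate 2, and the sum was 45.9 and 34.4 FPKM, against 38.5 to 57.0 FPKM in the mutants. The largest part of that sum was SCR, with 18.3 and 16.9 FPKM. Among all loci with a mean of at least 5 FPKM, 44.6% were lower in replicate 2, though most of these markers lie under that level. Of the 9 endodermis markers 5 were detected, and CASP1, which builds the Casparian strip, had 7.12 and 4.94 FPKM. In bulk RNA, fewer cells of a type and less RNA per cell cannot be told apart. Of 13 commonly used reference genes 7 were lower and 6 higher in replicate 2, with ratios of replicate 2 over replicate 1 from 0.853 to 1.07. The lowest ratio was that of UBQ5, with 488 and 416 FPKM, and the highest that of SAND, with 20.8 and 22.2 FPKM, while PP2AA3 had 39.9 and 39.8 FPKM.

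Across genes the 2 libraries were close. Over the 18411 detected loci the log2(FPKM + 1) values had a Pearson r of 0.992 and a Spearman rho of 0.991, a description across genes, which are not independent replicates. Among the 14203 loci with a mean of at least 5 FPKM, the values lay within 1.1-fold of each other for 58.4% and within 1.5-fold for 98.2%. Past 2-fold on the log2(FPKM + 1) scale lay 51 loci, 0.359% of the 14203. Of these 25 (0.176%) were higher and 26 (0.183%) lower in replicate 2. With a single library on each side no test is possible, and these are folds between libraries. The median absolute deviation of the log2 ratio was 0.234 for loci of 1 to 5 FPKM, where counting alone would give 0.125, and 0.0690 for loci above 1000 FPKM, where counting alone would give 0.00563. For these deviations the ratio was taken without the added 1, and loci at 0 in either library were left out.

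The ratio moved with level, length and class. Over all 14203 loci its median was 0.02, and 55.4% were higher and 44.6% lower in replicate 2. Taken without the added 1, the median log2 ratio of replicate 2 over replicate 1 was 0.06 for loci of 5 to 10 FPKM and -0.15 for those above 1000 FPKM. Of the 100 highest loci 81 were lower in replicate 2. By transcript length the median, with the added 1 again, was -0.06 in the shortest 20% and 0.08 in the longest 20%. The Spearman correlation of the ratio was 0.271 with transcript length and -0.196 with mean FPKM over 11589 genes, as a description. Among classes the lowest medians were -0.35 for metallothioneins, with none of 6 above 0, -0.24 for histones, -0.21 for class III peroxidases and -0.20 for cytosolic ribosomal proteins, with 18 of 215 above 0. Protein kinases and phosphatases were highest at 0.06, with 348 of 531 above 0. The parts of RNA length and level in the class medians were not tested.

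**Figure D5:**
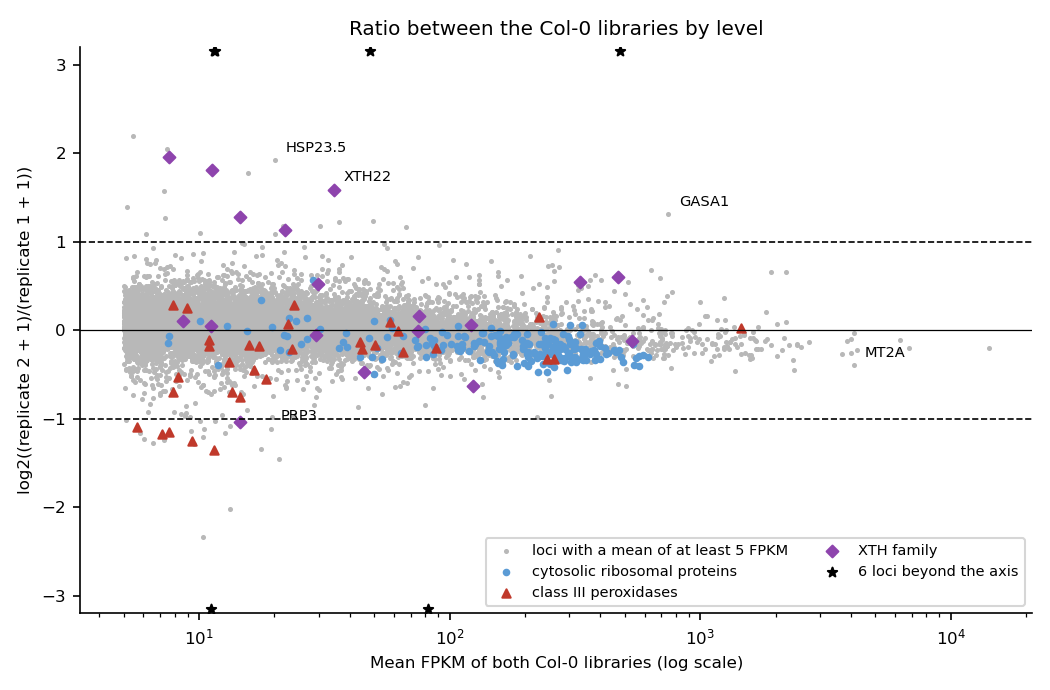
Log2 ratio of Col-0 replicate 2 over replicate 1 against the mean FPKM (log scale) for the 14203 loci with a mean of at least 5 FPKM, with dashed lines at 2-fold and stars at the edges for 6 loci beyond the axis. Cytosolic ribosomal proteins sit mostly just under 0, 5 class III peroxidases lie below the lower line, and 5 XTH genes lie above the upper line.

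The 26 loci lower in replicate 2 held 20 loci of a single gene, and 6 of the 26 belonged to the cell wall class. The 20 single-gene loci, chosen for being lower in Col-0 replicate 2, summed to 315 and 119.9 FPKM in Col-0. The same 20 loci summed to 267 and 281 in dek3-2, 189 and 127 in dek4-2 and 271 and 299.5 in dd-2. Class III peroxidases were 5 of the 26, or 5 of 32 in their class: PER44 with 17.0 and 6.02 FPKM, PER73 with 13.6 and 5.12 FPKM, PER35 with 10.9 and 4.34 FPKM, PER7 with 10.2 and 3.97 FPKM and PER59 with 8.05 and 3.23 FPKM. The 32 include DOX1, which was placed there by its annotation as a peroxidase superfamily protein although it has no PER name. RHS13, annotated as root hair specific, had 25.7 and 9.54 FPKM. PRP1 and PRP3, proline-rich wall proteins, the arabinogalactan protein AGP3 (17.9 and 7.43 FPKM) and the defensins PDF1.5 (14.8 and 6.25 FPKM) and PDF2.5 (15.9 and 7.31 FPKM) also belonged to them. PRP3 is itself 1 of the 7 root hair markers above, all 7 of which were lower in replicate 2, and the part of root hair cells in these differences was not tested. LURP1, annotated as a LURP-one-like protein, had 18 and 2.76 FPKM. Above a mean of 20 FPKM only MIR833A (165 and 0 FPKM) and AT2G30766 (30.9 and 10.7 FPKM), both on merged loci, were past 2-fold lower. Next to them, within 2-fold on that scale, AT2G05510 had 298 and 150.2 FPKM, the Kunitz inhibitor gene ATKTI1 31.9 and 15.7 FPKM, and the copper and zinc superoxide dismutase gene CSD2 103 and 57.0 FPKM.

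Of the 25 loci higher in replicate 2, 6 belonged to the cell wall class, which also had 6 loci lower among its 242, and 3 to the chaperones. GASA1, a small gibberellin-regulated protein, was the highest of them, with 428 FPKM in replicate 1 and 1064 FPKM in replicate 2, and the mutants ran from 399 to 1253 FPKM. Xyloglucan endotransglucosylases, which cut and rejoin wall polymers, gave 5 loci. XTH22 had 16.7 and 52.2 FPKM, XTH6 13.5 and 30.8 FPKM, XTH15 8.06 and 21.1 FPKM, XTH18 4.45 and 18.1 FPKM and XTH23 2.51 and 12.6 FPKM. The family did not move as a whole: of 18 members with a mean of at least 5 FPKM, XTH14 was past 2-fold lower, with 20 and 9.25 FPKM, and the highest member XTH7 had 556 and 511 FPKM. Chaperones gave 3 loci of 219 in their class, the small heat shock proteins HSP23.5 with 7.83 and 32.4 FPKM and HSP17.8 with 3.57 and 8.74 FPKM, and HSP81-1, a member of the HSP90 family, with 12.9 and 30.5 FPKM. Of the others, GPT2, which moves glucose 6-phosphate into plastids, had 21.3 and 51.2 FPKM, MIOX2, an inositol oxygenase, 29.2 and 70.0 FPKM, and the beta-amylase BAM5 6.56 and 24.9 FPKM. EXO and EXL1, annotated as phosphate-responsive proteins, had 40.8 and 92.7 FPKM and 2.30 and 12.6 FPKM. The 18 nuclear single-gene loci of this set, chosen for being higher in Col-0 replicate 2, summed to 638 and 1617 FPKM in Col-0, 705 and 1413 in dek3-2, 724 and 1377 in dek4-2 and 1212 and 1741 in dd-2, and GASA1 made up most of the Col-0 sums. Without GASA1 the sums were 210.3 and 553 FPKM in Col-0, 307 and 433 in dek3-2, 257 and 469 in dek4-2 and 460.0 and 488 in dd-2.

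Of the 51 loci, 12 share a merged locus, 6 in each direction, and so do 2456 (17.3%) of the 14203 loci. MIR833A, a microRNA precursor on such a locus, had 165 and 0 FPKM and was listed at 0 in all mutant libraries. AT3G45851 had 0 and 96.6 FPKM, and it too was at 0 in all mutants. AT5G09670 and CPuORF21, which share a locus, moved in opposite directions, with 21.3 and 1.07 FPKM for AT5G09670 and 0.176 and 23.1 FPKM for CPuORF21. Among the 56 loci under 300 bp with a mean of at least 5 FPKM, which were left out of the ranking, 9 were higher and 13 lower past 2-fold (39.3% together). AT3G06335 had 1142 and 0 FPKM and the RPL41E gene AT3G08520 had 0 and 689 FPKM, while the highest short locus, RPL32 of the chloroplast, had 1362 and 1988 FPKM. Genes in this account other than the 30 highest loci, the 3 highest of each class, the 10 highest transcription factors and genes of unknown function, the 8 most extreme ratios in each direction above 20 FPKM and the markers were chosen after their values were seen.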

How the data were processed

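RNA-seq tables of 2 Col-0 libraries were described, with 6 mutant libraries of the series beside them. The deposited tables hold FPKM per gene, calculated by the authors. Per the submitters' processing notes HISAT2, featureCounts, edgeR and the build TAIR10 were used. Versions, the program that made the FPKM, and strand use in counting are not given in the sources used here. Per the labels' protocols a directional library kit was used. Library depth was estimated from the steps of low values in loci of 1000 to 6000 bp. All other values were computed from the deposited FPKM with Python 3.11.15, pandas 2.3.3, numpy 2.4.6 and scipy 1.17.1. Loci under 300 bp (1842) were left out. Gene names, products and sequences came from the RefSeq annotation of TAIR10.1, which matched 32813 codes and lacked 744. Each gene was put in 1 of 34 function classes, the first whose rule its symbol or product matched. Ratios are log2((replicate 2 + 1)/(replicate 1 + 1)), and 1 group of 2 libraries allowed no test. The medians and deviations of the ratio by FPKM level were taken without the added 1. Counting error was approximated from the estimated fragments and covers counting only. Scripts were tested on simulated data. The named genes were the 30 highest, the 3 highest of each class, the 10 highest transcription factors and genes of unknown function, the 8 largest and 8 smallest ratios above 20 FPKM, and the markers. Members, lists and named genes were chosen with earlier results of these data known, and the function rules were adjusted on the annotation.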

Additional observations from a re-analysis of the deposited data

How the results depend on the processing

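No paired analysis was possible because the result comes from no test. With FPKM weighted by transcript length, as a share of sequenced fragments, nuclear photosynthesis held 11.6%, protein synthesis 6.21%, walls and surface 3.87%, the chloroplast genome 0.342% and the nuclear genome 99.7%, and the 10, 100 and 1000 highest loci held 5.40%, 19.4% and 48.3%. In these weighted shares, merged loci without a transcript length carried no weight. ATPE and ATPB, the highest chloroplast genes, were among them, so the weighted chloroplast share is too low and the nuclear share too high. Without a minimum span the chloroplast genome held 1.49% and the nuclear genome 98.5%. Past 2-fold in Col-0 replicate 2 over replicate 1 were 44 loci higher and 63 lower without a minimum FPKM, and 12 higher and 2 lower at a minimum of 20 FPKM. Without merged loci, an alternative chosen after seeing the data, 19 were higher and 20 lower, and 24 of the 30 highest loci stayed when merged loci were left out. Leaving out each library in turn, promoters of the 100 highest loci held an I box in 41.1% to 42.0%, a G box in 21.6% to 23.3%, a TATAAA in 23.3% to 23.9% and a site II element in 23.9% to 24.4%, and those of the next loci down to rank 1000 held an I box in 19.0% to 19.5%, a G box in 12.9% to 13% and a TATAAA in 22.2% to 22.5%. Of 306 alternative values, 238 moved by less than the spread between the libraries or within 1.5 times for counts, and 68 moved by more. With only 2 libraries, the share in either always lies within their SD of the mean. Shares with a library left out therefore could not move by more, and their place among the 238 shows nothing about stability. Detection at 1 FPKM is limited by depth for loci near that level.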
